A study of Homo sapiens with 2 samples.

Results

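The genes described here build and separate mitotic chromosomes: the cohesin subunits SMC1A, SMC3 and RAD21, the condensin subunits SMC2, SMC4, NCAPD2, NCAPG and NCAPH, the cohesin-cleaving protease separase (ESPL1) and the alpha form of DNA topoisomerase II (TOP2A). They were chosen by name, as the transcript clusters with one of these 10 symbols as their single platform symbol, and made up 10 of the 18417 genes with such a cluster. The choice was made with earlier results of these data known. Each of the 10 had 1 transcript cluster, the unit in which the array reports a gene. Expression was measured on Affymetrix Human Gene 1.0 ST arrays in ACHN, an established line of human kidney cancer cells labelled as clear cell carcinoma. The cells carried either an shRNA against Kindlin-2, an integrin adaptor encoded by FERMT2, or a control shRNA, and both cultures grew in medium with 400 µg/ml G418, a drug that selects transfected cells. Each group was a single array (n = 1), so no value below has a replicate, an error or a p-value, and every difference describes these 2 arrays only. The hairpin sequences, and whether each culture was a clone or a pool, are not stated in the sources used here.

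Cohesin is a ring of SMC1A, SMC3 and the kleisin RAD21, with a STAG subunit bound to it, that holds sister DNA molecules together from replication until anaphase and folds interphase chromatin into loops. Condensin, built on SMC2 and SMC4, compacts chromosomes in mitosis, and topoisomerase II passes one DNA duplex through another so that sister chromatids can be untangled. At anaphase the inhibitor securin and cyclin B are destroyed, separase is freed, and it cuts RAD21. Several of these genes are transcribed mainly in dividing cells, and promoters of such genes often carry a CCAAT box, bound by NF-Y, and a cell cycle gene homology region (CHR), bound by the DREAM and MuvB complexes.

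To show what lies before the starts of these genes, the 250 bases upstream of an annotated start are printed for the 4 members that differed most, for separase, and for NCAPD2, the member that differed least. They are RefSeq sequences of GRCh38.p14, written 5′ to 3′ on the strand of the gene. Capitals mark CCAAT or ATTGG, which is the same box read on the other strand, and TTTGAA with its reverse complement TTCAAA and the palindrome TTCGAA, the letters searched for the CHR on both strands. The CCAAT and CHR letters overlapped nowhere in these windows. The windows are NCAPG (chr4:17810729-17810978, plus strand), NCAPH (chr2:96335516-96335765, plus strand), SMC4 (chr3:160399400-160399649, plus strand, 1 of 2 annotated starts), TOP2A (chr17:40417897-40418146, minus strand), ESPL1 (chr12:53268049-53268298, plus strand) and NCAPD2 (chr12:6493852-6494101, plus strand).
NCAPG: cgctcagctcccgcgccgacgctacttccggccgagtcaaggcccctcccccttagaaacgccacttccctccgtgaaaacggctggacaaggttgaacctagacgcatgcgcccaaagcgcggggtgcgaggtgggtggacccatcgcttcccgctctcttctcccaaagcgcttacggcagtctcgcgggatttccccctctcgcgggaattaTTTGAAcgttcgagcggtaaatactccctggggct
NCAPH: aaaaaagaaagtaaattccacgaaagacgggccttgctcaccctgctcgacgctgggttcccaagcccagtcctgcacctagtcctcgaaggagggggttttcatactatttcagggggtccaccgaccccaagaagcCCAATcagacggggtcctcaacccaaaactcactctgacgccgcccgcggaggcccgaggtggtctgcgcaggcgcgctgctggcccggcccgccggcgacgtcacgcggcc
SMC4: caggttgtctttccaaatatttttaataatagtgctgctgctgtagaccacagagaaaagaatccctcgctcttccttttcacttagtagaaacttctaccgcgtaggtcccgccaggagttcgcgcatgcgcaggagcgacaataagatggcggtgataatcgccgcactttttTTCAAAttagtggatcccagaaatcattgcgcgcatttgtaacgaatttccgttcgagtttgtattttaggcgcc
TOP2A: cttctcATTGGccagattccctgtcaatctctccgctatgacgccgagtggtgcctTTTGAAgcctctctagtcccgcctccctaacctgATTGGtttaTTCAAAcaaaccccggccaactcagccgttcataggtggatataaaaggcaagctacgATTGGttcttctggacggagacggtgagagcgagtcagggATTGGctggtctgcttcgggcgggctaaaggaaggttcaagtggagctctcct
ESPL1: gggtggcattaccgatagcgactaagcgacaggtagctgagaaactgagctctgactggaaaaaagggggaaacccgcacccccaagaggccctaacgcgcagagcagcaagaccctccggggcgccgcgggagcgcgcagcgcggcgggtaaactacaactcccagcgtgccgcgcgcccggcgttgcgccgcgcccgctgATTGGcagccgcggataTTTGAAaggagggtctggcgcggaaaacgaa
NCAPD2: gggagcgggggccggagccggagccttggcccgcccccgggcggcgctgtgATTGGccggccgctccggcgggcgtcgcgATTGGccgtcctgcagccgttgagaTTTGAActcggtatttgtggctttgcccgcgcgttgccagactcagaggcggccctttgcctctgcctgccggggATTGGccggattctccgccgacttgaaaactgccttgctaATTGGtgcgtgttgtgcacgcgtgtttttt

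NCAPG had a single match, the CHR letters TTTGAA beginning 35 bases before its start. In ESPL1 the same letters began 31 bases before the start, with ATTGG beginning 48 bases before it. TOP2A held 4 CCAAT boxes, all as ATTGG, and 2 CHR matches, TTTGAA beginning 194 bases and TTCAAA 151 bases before the start. SMC4 held TTCAAA 75 bases before one of its starts, and NCAPH a CCAAT box 112 bases before its own. The SMC4 window with the most matches was the one printed, and its other window held neither CCAAT box nor CHR letters. NCAPD2 held 4 ATTGG boxes and 1 TTTGAA. It thus carried as many CCAAT boxes as TOP2A. Any relation between these letters and the differences between the arrays was not tested. Promoter windows were matched for 9 of the 10 members (12 windows), of which 4 members held a CCAAT box, 6 held CHR letters, 3 held both in a single window and 2, SMC1A and SMC2, held neither. Counted by window, as for the background that follows, 4 of the 12 held a CCAAT box, 6 held CHR letters and 3 held both. Among all 35116 windows of this length in the table, 32.0% held a CCAAT box, 14.3% CHR letters and 5.05% both. A match is a run of letters and no measurement of binding.

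**Figure D1:**
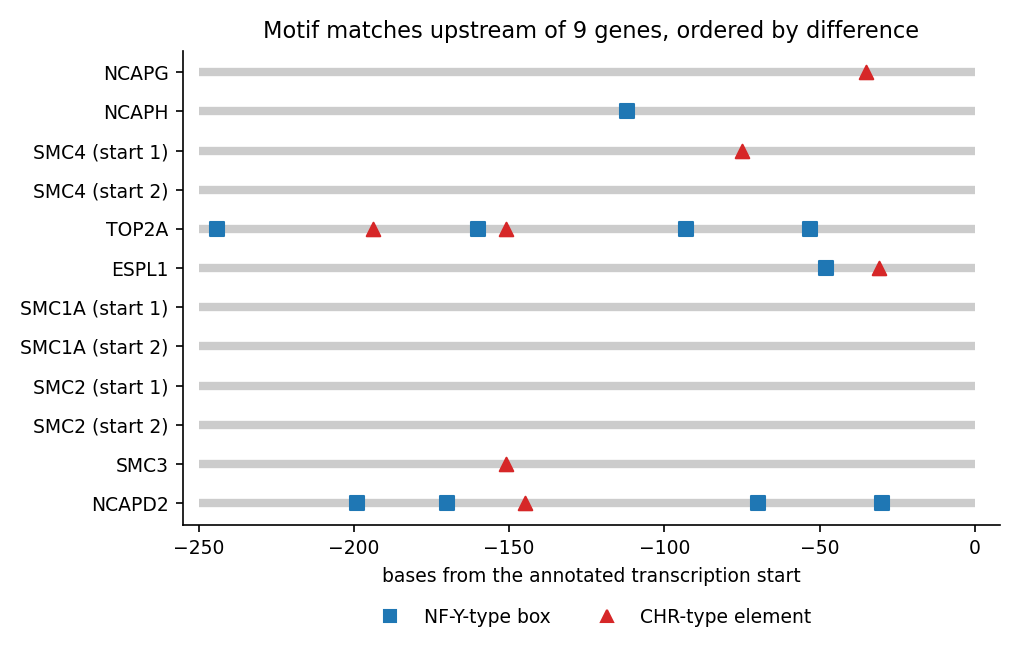
Matches to the CCAAT box (squares, drawn as NF-Y-type box) and the CHR letters (triangles) in the 250 bases before each annotated start of 9 members, with the x axis in bases from the start and the genes ordered from the largest difference between the arrays (top) to the smallest. NCAPG has 1 match and NCAPD2 has 5, and a relation between matches and order was not tested.

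The knockdown was visible in its target. FERMT2 had a log2 value of 8.26 on the Kindlin-2 shRNA array and 9.37 on the control array, or 46.4% of the control level. Of 10 measured markers of kidney epithelium and renal carcinoma, 9 lay at or above 6.52 on both arrays, a floor for dim genes set at the median of the deposited values. The exception was CDH16, at 6.26 on the knockdown array and 7.10 on the control array. The differences of these 10 had a median of -0.34, with 1 above 0, against 46.4% of all genes kept. Of the 10, 2 were at least 1.5-fold lower on the knockdown array, against 5.23%. None of 6 endothelial markers reached the floor on either array, and of 6 leukocyte markers only CD68, which is also a lysosomal protein, did so on both, at 10.25 on the knockdown array and 9.01 on the control array. Of 8 fibroblast and smooth muscle markers 2 reached the floor on both arrays, and the median of the 8 was 6.40 on the knockdown array and 6.52 on the control array. Of the 5 of them kept, 2 were at least 1.5-fold lower on the knockdown array, against 5.23% of all genes kept. These were PDGFRB at -0.77 and ACTA2 at -0.76. The part of these markers in the results below was not tested.

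All 10 members were above the floor and all 10 had the higher value on the Kindlin-2 shRNA array, against 46.4% of the 11822 genes kept. Their median difference, Kindlin-2 shRNA minus control on the log2 scale, was 0.47, and that of all genes kept was -0.02. Of the members, 4 were at least 1.5-fold higher (NCAPG, NCAPH, SMC4 and TOP2A), where 5.1% of all genes kept were, and none was 1.5-fold lower, where 5.23% were. At 2-fold, 1 member was higher against 1.41% of all genes kept, and none was lower against 1.26%. That member was NCAPG, and NCAPH lay just outside the threshold at 1.99-fold. The array measures RNA from a whole culture, so a larger share of dividing cells and more RNA per cell cannot be told apart.

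**Figure D2:**
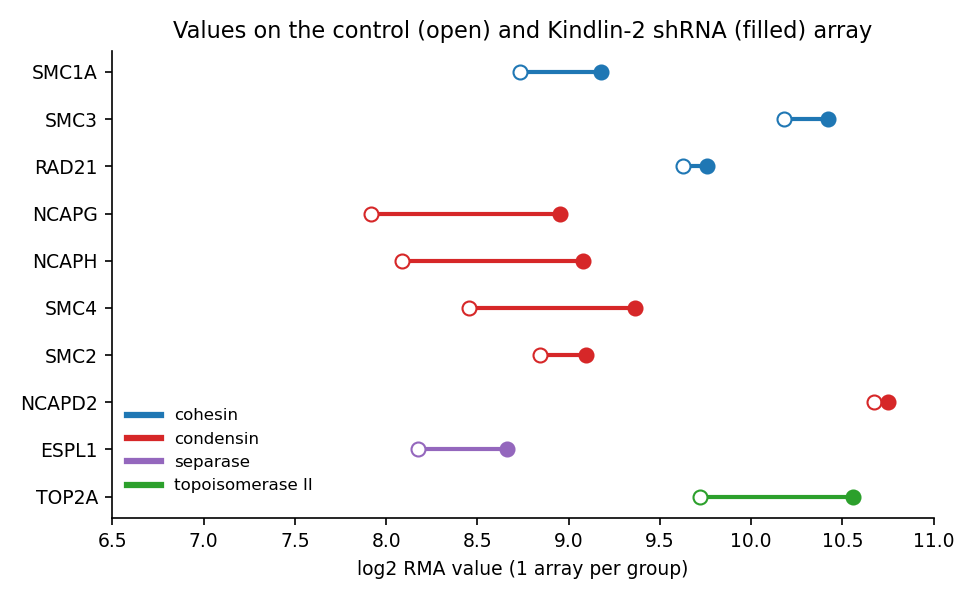
Log2 RMA value (x axis) of each member on the control array (open circle) and the Kindlin-2 shRNA array (filled circle), coloured by complex. All 10 filled circles lie to the right of the open ones, by 1.03 for NCAPG and by 0.08 for NCAPD2.

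The 5 condensin subunits did not move by like amounts. NCAPG, a HEAT-repeat subunit found only in condensin I, had a log2 value of 8.95 on the knockdown array and 7.92 on the control array, a difference of 1.03 or 2.05-fold, and 147 of the genes kept had a larger increase. NCAPH, the kleisin that closes the condensin I ring, stood at 9.08 and 8.09 on the same arrays, a difference of 0.99. SMC4, an ATPase shared by both condensins, stood at 9.37 on the knockdown array and 8.46 on the control array, or 1.88-fold higher. These 3 subunits were close together, and their order was not resolved by single arrays.

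SMC2, the partner with which SMC4 forms an obligate pair, stood at 9.10 on the knockdown array and 8.84 on the control array. Its difference of 0.25 (1.19-fold) was 0.66 smaller than that of SMC4 on the log2 scale. With the median of the 50 nearest genes kept on the same chromosome subtracted, SMC2 stood at 0.51 and SMC4 at 0.79. NCAPD2, the other HEAT-repeat subunit of condensin I, stood at 10.75 on the knockdown array and 10.67 on the control array, a difference of 0.08 that 36.2% of all genes kept exceeded. Within condensin I the differences therefore ran from 1.05-fold for NCAPD2 to 2.05-fold for NCAPG.

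The 3 cohesin subunits differed by less than 1.5-fold. SMC1A, an ATPase of the ring, had a log2 value of 9.17 on the knockdown array and 8.73 on the control array, 1.36-fold higher. SMC3, its partner, stood at 10.42 and 10.18 on the same arrays, a difference of 0.24. RAD21, the kleisin that separase cuts, stood at 9.76 on the knockdown array and 9.63 on the control array, a difference of 0.13 or 1.10-fold. The median of the 3 cohesin subunits was 0.24 and that of the 5 condensin subunits 0.91 on the same scale, a gap with no test behind it.

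Separase and topoisomerase II alpha act when sister chromatids part. ESPL1 had a log2 value of 8.66 on the knockdown array and 8.17 on the control array, a difference of 0.49 (1.40-fold) that fell short of the 1.5-fold line. TOP2A, the form of topoisomerase II made mainly in dividing cells and the target of anthracyclines and etoposide, stood at 10.56 on the knockdown array and 9.72 on the control array. It was 1.79-fold higher, and 272 of the genes kept had a larger increase.

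**Figure D3:**
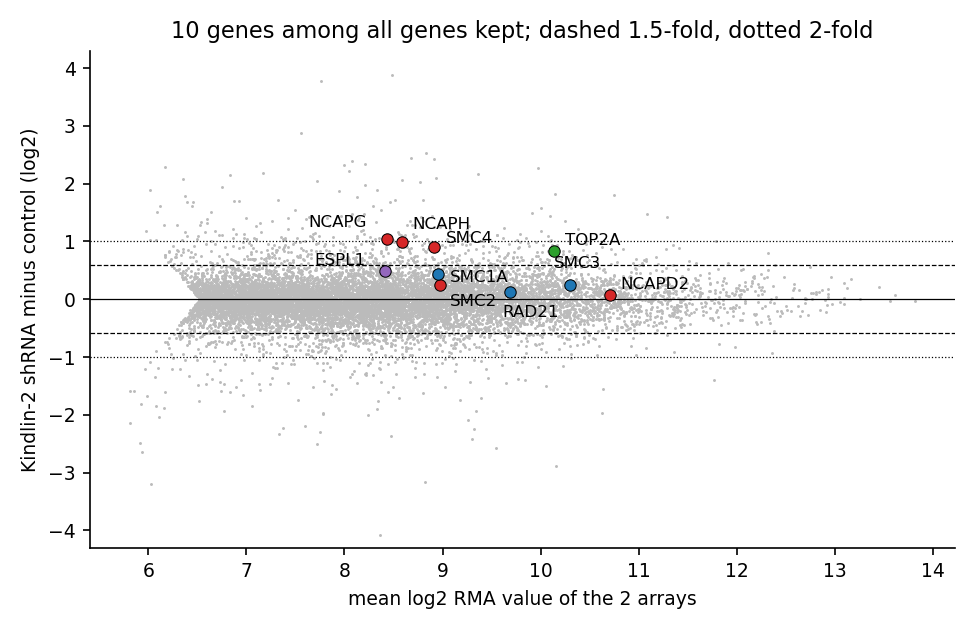
Difference between the arrays (y axis, log2) against the mean log2 value (x axis) for the 11822 genes kept (grey), with the 10 members coloured by complex as cohesin (blue), condensin (red), separase (purple) and topoisomerase II (green), and lines at 1.5-fold and 2-fold. NCAPG, NCAPH, SMC4 and TOP2A lie above the 1.5-fold line, while NCAPD2, RAD21, SMC3 and SMC2 lie within the mass of genes.

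Genes of some chromosomes were lower or higher as a whole on the knockdown array, and 3 members lie on chromosomes that were lower. Chromosome 12, with ESPL1 and NCAPD2, had a median difference of -0.21 over 630 genes kept, and chromosome 9, with SMC2, of -0.31 over 495. The 50 nearest genes kept had medians of -0.25 around ESPL1, -0.22 around NCAPD2 and -0.26 around SMC2. With these neighbour medians subtracted, ESPL1 stood at 0.74, which is past 1.5-fold, SMC2 at 0.51 and NCAPD2 at 0.30. SMC4 moved the other way, from 0.91 to 0.79, with a neighbour median of 0.12 on chromosome 3. For the 6 other members the neighbour median lay between -0.04 and 0.02. The median of the 10 members was 0.63 after the subtraction, with 5 members at least 1.5-fold higher. NCAPD2, SMC3 and RAD21 then held the 3 smallest differences, at 0.30, 0.23 and 0.16.

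**Figure D4:**
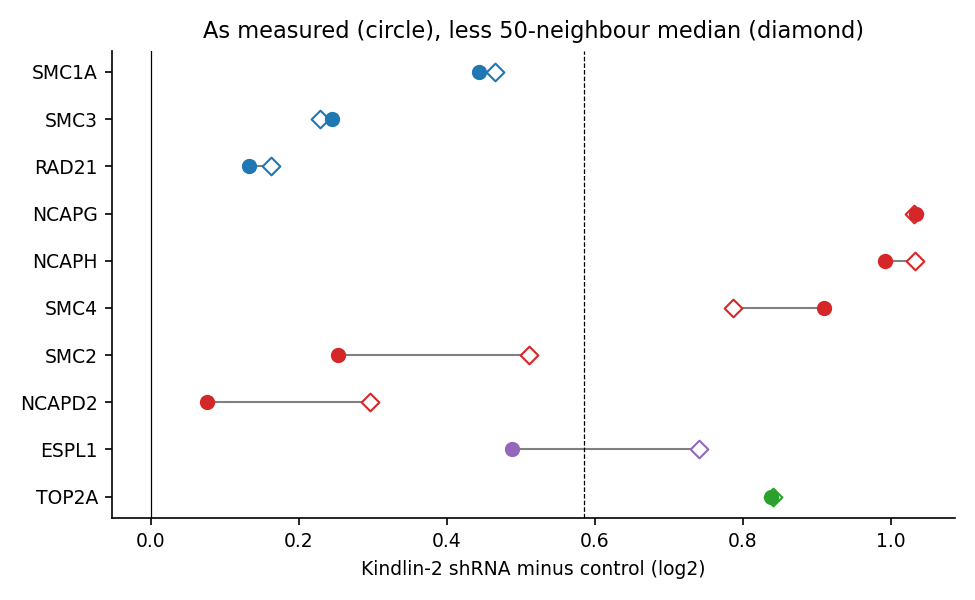
Difference between the arrays (x axis, log2) for each member as measured (circle) and after subtraction of the median of its 50 nearest genes kept on the same chromosome (open diamond), with a dashed line at 1.5-fold. ESPL1, SMC2 and NCAPD2 move to the right, and ESPL1 crosses the line.

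Cohesin works with a set of loaders, release factors and protectors, and these differed in both directions. Of 20 listed genes 16 were kept, with a median difference of 0.09. Of these, 5 were at least 1.5-fold higher, against 5.1% of all genes kept, and none 1.5-fold lower, against 5.23%. ESCO2, the acetyltransferase that locks cohesin on DNA during replication, was 2.13-fold higher, with log2 values of 9.13 on the knockdown array and 8.04 on the control array. The shugoshins SGO1 and SGO2, which protect centromeric cohesin, differed by 0.76 and 0.72, and sororin (CDCA5), which keeps WAPL from opening the ring, by 0.62. SLF2, the fifth, differed by 0.65 but is known as a partner of SMC5/6 and not of cohesin. With neighbour medians subtracted, SGO2 stood at 0.53, short of 1.5-fold, and 4 genes of this list remained past it.

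The other 11 genes kept in the list lay between -0.39 and 0.31. The loader NIPBL differed by -0.04, the release factor WAPL by 0.08 and PDS5A by -0.01. CTCF, the DNA-binding protein at which cohesin loops stop, differed by -0.14. ESCO1, the acetyltransferase active outside replication, differed by 0.09 (-0.0028 with neighbour medians subtracted). The STAG subunits stood on opposite sides of 0, STAG1 at -0.18 and STAG2 at 0.31. HDAC8, which removes the acetyl group from SMC3, had the lowest difference among the genes kept from this list, -0.39. The meiotic genes STAG3, SMC1B and RAD21L1 were below the floor, and REC8, also meiotic, differed by 0.07. DDX11 was not analysed here.

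Condensin II shares SMC2 and SMC4 with condensin I and has its own NCAPG2, NCAPH2 and NCAPD3. NCAPG2 was 1.75-fold higher, with log2 values of 9.23 on the knockdown array and 8.42 on the control array. NCAPD3 differed by 0.55, just short of 1.5-fold, and NCAPH2 by -0.05 (0.02 with neighbour medians subtracted). The G subunits of both condensins were thus past 1.5-fold, but of the H subunits only that of condensin I, and of the D subunits neither. NCAPH exceeded NCAPH2 by 1.05 and NCAPD3 exceeded NCAPD2 by 0.47 on the log2 difference scale. With neighbour medians subtracted, NCAPH stood at 1.03 and NCAPH2 at 0.02, and NCAPD3 at 0.53 and NCAPD2 at 0.30. NCAPG and NCAPG2 each stood at 1.03 after the same subtraction. MKI67, which coats mitotic chromosomes, was 1.78-fold higher, the chromokinesin KIF4A differed by 0.47 and SMCHD1, an SMC-like chromatin protein, by 0.57. The anchoring protein AKAP8 differed by -0.28. The 7 genes kept from this list of 8 had a median of 0.55. Of them, 2 were at least 1.5-fold higher, against 5.1% of all genes kept, and none 1.5-fold lower, against 5.23%.

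The third SMC complex, SMC5/6, acts in DNA repair. Of 8 listed genes 7 were kept, with a median of 0.30. Of these, 1 was at least 1.5-fold higher, against 5.1% of all genes kept, and none 1.5-fold lower, against 5.23%. The ATPases of SMC5/6 stood on opposite sides of 0, with SMC6 at 0.30 and SMC5 at -0.34. SMC5 lies on chromosome 9 and was at -0.09 with neighbour medians subtracted. The gene past 1.5-fold was EID3, a paralogue of the kleisin NSMCE4A, at 0.66. Its log2 value was 7.09 on the knockdown array and 6.43 on the control array, below the floor of 6.52. EID3 was thus kept through its value on the knockdown array alone. None of the other topoisomerases and their partners passed 1.5-fold in either direction, with a median of 0.19 over the 8 genes kept of 9 listed. Of all genes kept, 5.1% were at least 1.5-fold higher and 5.23% lower. TOP2B, the form of topoisomerase II also made in resting cells, differed by 0.43 (1.35-fold), which was 0.41 less than TOP2A. TOP1, which relaxes supercoils by cutting a single strand, differed by 0.57 but by 0.16 with the median of its neighbours on chromosome 20 subtracted. TDP2, which removes trapped topoisomerase II from DNA, differed by -0.42 and mitochondrial TOP1MT by -0.43.

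Separase is held in check by securin (PTTG1) and by cyclin B with CDK1, and freed by the anaphase-promoting complex (APC/C). PTTG1 had a log2 value of 9.01 on the knockdown array and 7.98 on the control array, 2.05-fold higher. Securin thus differed by 0.55 more than separase on the log2 scale. With neighbour medians subtracted, PTTG1 stood at 0.98 and ESPL1 at 0.74. CDK1 was 2.20-fold higher, MAD2L1, a checkpoint protein that inhibits the APC/C, 2.20-fold, and cyclin B1 (CCNB1) 1.91-fold. BUB1B, a protein of the spindle checkpoint, was 1.81-fold higher, the APC/C ubiquitin-conjugating enzyme UBE2C 1.95-fold and the activator CDC20 1.63-fold. Their counterparts differed by less or the other way, with the second activator FZR1 at -0.29, the enzyme UBE2S at 0.27 and cyclin B2 (CCNB2) at 0.35. UBE2C lies on chromosome 20 and was at 0.62 with neighbour medians subtracted. Among subunits of the APC/C itself, ANAPC1 differed by 0.44, CDC27 by 0.37, ANAPC11 by 0.09 and ANAPC2 by -0.43, and none passed 1.5-fold. ANAPC2 lies on chromosome 9 and was at -0.20 with neighbour medians subtracted. Of 18 listed genes 16 were kept, with a median of 0.41. Of these, 7 were at least 1.5-fold higher, against 5.1% of all genes kept, and none 1.5-fold lower, against 5.23%.

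For comparison, 10 of 18 mitotic kinases and B cyclins kept were at least 1.5-fold higher, against 5.1% of all genes kept. Their median was 0.64. At least 1.5-fold higher were also 16 of 30 kinetochore and spindle checkpoint genes, with a median of 0.60. Of 49 DNA replication and G1/S genes 13 were, with a median of 0.40. The kinetochore and replication counts include genes below the floor on the control array, since a gene was kept on its higher value. In the last list 1 gene, E2F8, was at least 1.5-fold lower, and in the first pair none was, against 5.23%. The median of the 10 members, 0.47, lay between those of the replication list and the mitotic lists, and no test of these gaps was possible with 1 array per group. CDK1, CCNB1, CCNB2, MAD2L1 and BUB1B stand in both the separase list and a mitotic list, and BUB1 stands in both the mitotic kinase and the kinetochore list, so these counts are not separate.

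**Figure D5:**
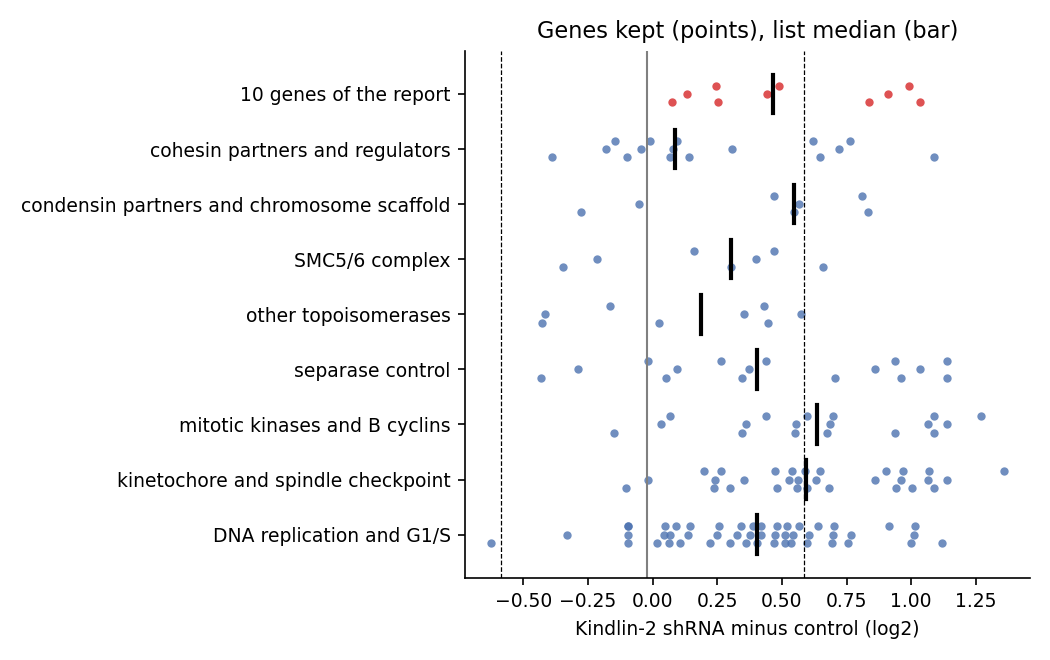
Difference between the arrays (x axis, log2) for every gene kept (points) in the 10 members (red) and in the related and comparison lists (blue), with the list median as a black bar, the median of all genes kept as a grey line and dashed lines at 1.5-fold. The member median lies at 0.47, and the list of cohesin partners holds a group near 0 and 5 genes beyond the dashed line.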

How the data were processed

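The series holds 2 Affymetrix Human Gene 1.0 ST arrays of ACHN cells, grouped by the shRNA label. The authors deposited RMA log2 values, made in version 1.4.1 of Affymetrix Expression Console per the submitters' processing notes. The log2 scale was judged from the range of 2.13 to 14.04. RMA shrinks differences between dim values. The library file is not stated in these sources, and no detection calls were used. Platform symbols were updated through Entrez IDs to RefSeq (GRCh38.p14), and 19460 of 33297 transcript clusters had a single symbol. A gene was represented by its brightest cluster and kept when its higher value reached 6.52, the median of the table. Fold is 2 raised to the log2 difference. RefSeq positions gave chromosomes, neighbours and promoter windows only. The calculations (Python 3.11.15, pandas 2.3.3, statsmodels 0.14.6) were tested on simulated data. That test checked the code and not the differences reported here. Alternatives were no floor, a higher floor, the mean over clusters, 3 other scalings and subtraction of chromosome or neighbour medians. The number of arrays limits precision. The members and lists were chosen with earlier results of these data known. Genes to be named were all members, the genes of the related lists past 1.5-fold, with other genes of those lists allowed, FERMT2, and up to 2 per direction from the comparison lists. CDH16, CD68, PDGFRB and ACTA2 were named after their values were seen.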

Additional observations from a re-analysis of the deposited data

How the results depend on the processing

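All 10 members stayed above 0 under all 8 alternatives, with the smallest value for NCAPD2 (0.04 after a repeated quantile normalization). Dropping the floor, raising it and averaging over clusters could not change a member's difference. Each member had a single cluster and lay above both floors, so only the other scalings and the subtractions bear on the members. The count of members at least 1.5-fold higher was 4, or 5 with chromosome or neighbour medians subtracted, where ESPL1 stood at 0.70 and 0.74. The count at 2-fold, 1 as reported, was 2 under quantile normalization, 2 under loess, 2 with neighbour medians subtracted and 0 with chromosome medians subtracted, since NCAPG and NCAPH lie close to the threshold. The median difference was 0.63 with chromosome medians and 0.63 with neighbour medians subtracted, and between 0.45 and 0.48 otherwise. The list counts were recomputed under the same alternatives, an addition made after seeing the data. With the floor at the 75th percentile (8.30), which keeps fewer genes, the counts at least 1.5-fold higher were 1 of 8 for cohesin partners (median -0.03), 0 of 3 for SMC5/6, 4 of 10 for separase control, 8 of 15 for kinetochore and 8 of 26 for replication genes, against 6.21% of all genes kept. Of 145 genes in these lists with more than 1 setting, 11 changed sign under an alternative, among them NCAPH2, ESCO1, PDS5B and MAU2. No paired analysis was possible because each group had 1 array, and for the same reason no replicate could be left out.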
